A study of Cordyceps militaris with 6 samples.

Results

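In Cordyceps militaris, a cultivated ascomycete valued for its orange fruiting bodies, short-chain dehydrogenases and flavin oxidoreductases made up 111 of the 10385 genes in the expression table. They were chosen by product text alone: a gene was a member where its text named a short-chain dehydrogenase, FAD binding or dependence on FAD, a glucose oxidase, a glucose-methanol-choline oxidoreductase or a cellobiose dehydrogenase, and did not name a P450. By the same texts, 39 were short-chain dehydrogenases, 13 were of the glucose-methanol-choline (GMC) type, 27 were FAD-dependent oxidoreductases and 32 were FAD-binding proteins, a group that held 8 genes with the text of an FAD-binding monooxygenase and another of the PheA/TfdB family. Of the 111, 106 were reference genes with a CCM locus tag and 5 were transcribed loci outside the reference annotation. The texts name a substrate for few of them: 20 genes were called only FAD dependent oxidoreductase and 12 only FAD binding domain protein.

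Short-chain dehydrogenases are a large family of compact enzymes that move hydride between NAD(H) or NADP(H) and an alcohol or carbonyl group, in lipid, sugar, steroid and secondary metabolism. Flavin oxidoreductases carry electrons on FAD instead. GMC-type oxidases pass them from sugars or alcohols to oxygen and release hydrogen peroxide, cellobiose dehydrogenases pass them from cellulose breakdown products to other acceptors, and FAD monooxygenases use NAD(P)H and oxygen to hydroxylate aromatic or polyketide substrates. In fungi, genes of both families often lie beside synthases, P450s and transporters of secondary metabolism.

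The series followed the YCC strain through serial subculture, which can bring degeneration, the loss of fruiting, and its stated aim was to see how transcriptomes diverge on the way. Poly(A) RNA was sequenced from mycelium of passages 1, 2, 3, 4, 5 and 6, each shaken for 72 h in the dark in liquid glucose, peptone and yeast extract medium that also held vitamin B2, the precursor of FAD. Each passage had 1 library. The labels do not say whether 1 line was sampled in turn, so consecutive passages may not be independent, and a difference between single libraries has no replicate check. Passage 1 was compared with passages 2 to 6 as a group, which assumes that the lone passage 1 library varies like the other 5. This comparison was taken from earlier results of these data, in which the passage 1 library stood apart. The adjusted p and shares of genes called are thus not independent of that choice, and they describe how far passage 1 lay from the rest.

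Expected counts totalled 9740171 to 13813999 per library. The mycelium label was set beside 16 genes for actin, tubulin, elongation factor, GAPDH and chitin synthases. Their summed level, carried mostly by GAPDH and elongation factor, was 19516 to 23562 FPKM in every library. That level cannot test the label, since the genes that carry it are not particular to mycelium. Of these 16, 7 fell and 1 rose after passage 1 in the edgeR test described below (50% called, against 23.6% of all genes), among them the chitin synthases CCM_02965 (fell by 1.89 on the log2 scale, SE 0.17, adjusted p = 0.0032) and CCM_02966 (fell by 1.96, SE 0.21, adjusted p = 0.0034). Markers of conidia and aerial growth (12 genes, 1 of them at 0 in all libraries) summed to 1403, 872, 725, 1204, 518 and 1528 FPKM in passages 1 to 6, and 4 of the 10 tested fell after passage 1, among them AbaA (CCM_05444), from 232 FPKM to 31.05 to 94.03 FPKM. The 4 fruiting body and mating markers summed to 10.4 to 21.6 FPKM. After passage 1, shorter transcripts were higher and longer ones lower: over all genes tested the median log2 difference was 0.60 under 0.6 kb, 0.38 from 0.6 to 1 kb, 0.11 from 1 to 1.5 kb, −0.12 from 1.5 to 2.5 kb and −0.42 above that. FPKM are printed as deposited, and their median over all genes lay 0.19 to 0.27 log2 units above passage 1 in the later libraries, whereas log2 differences are on counts scaled by the trimmed mean of M-values (TMM). In mycelium, fewer cells that make a transcript and less transcript per cell cannot be told apart.

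All 111 members had a count in at least 1 library, and 104 had counts in all 6. Mean levels were at least 1 FPKM for 99 members, at least 10 FPKM for 69 and at least 100 FPKM for 11, and 12 stayed under 1 FPKM. The share of genes at 10 FPKM or more was 62.2% among members and 60.5% among all genes. Together the members took 0.735%, 0.854%, 0.813%, 0.788%, 0.833% and 0.906% of counts in passages 1 to 6. The 5 highest members carried 45.6% to 54.4% of the summed member FPKM of each library. Summed by group, the GMC-type enzymes were at 1276 FPKM in passage 1 and 660 to 1055 FPKM later, the FAD-binding proteins at 1123 and 1566 to 1867 FPKM, the FAD-dependent oxidoreductases at 1441 and 1653 to 2507 FPKM, and the short-chain dehydrogenases at 1276 and 1321 to 1625 FPKM. The GMC sum was thus highest in passage 1 and the other 3 sums were lowest there. These sums were not corrected for the shift of FPKM as deposited, whose median lay 0.19 to 0.27 log2 units higher in the later libraries. In the FAD-binding sum, CCM_07717 alone was at 306 FPKM in passage 1 and at 650 to 1061 FPKM later.

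**Figure D1:**
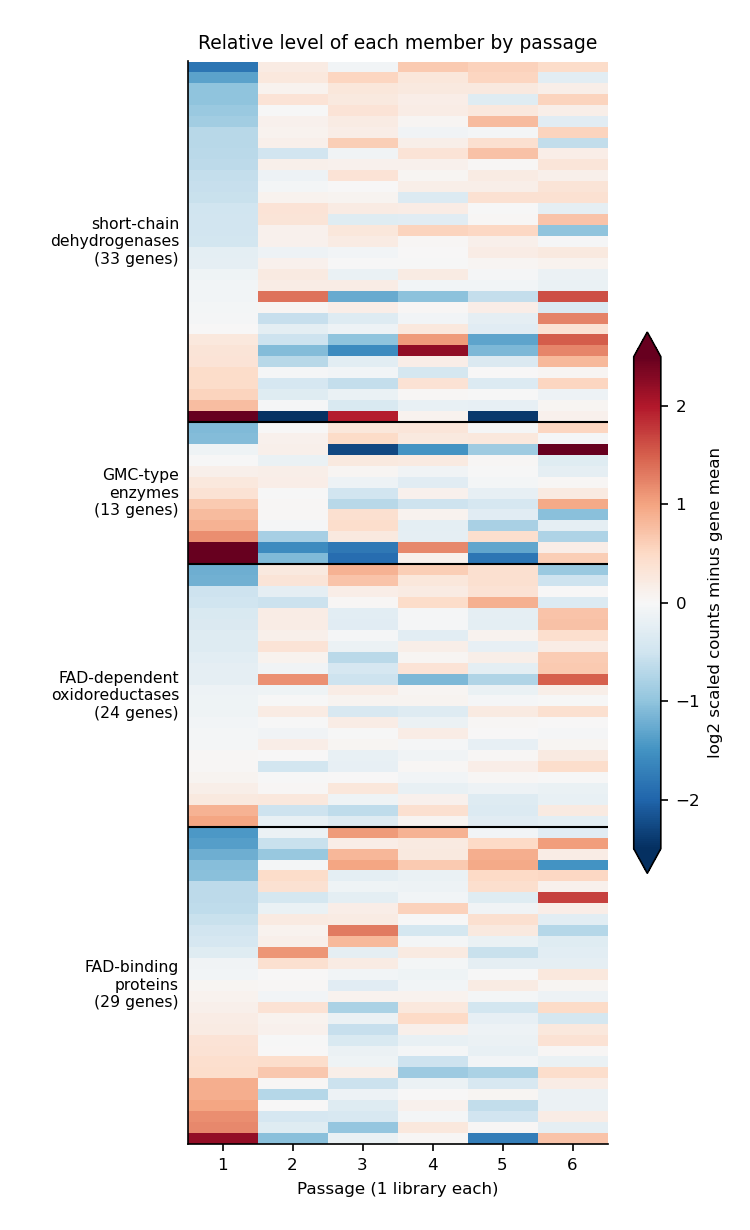
Relative level of the 99 members with a mean of at least 1 FPKM (rows, grouped by product text and ordered by their passage 1 value) in the 6 libraries (columns); colour is log2 TMM-scaled counts (0.1 added) minus the gene's mean over the 6 libraries. Passage 1 holds most of the strong colours, many short-chain dehydrogenases are low there, and single rows stand out in passage 6.

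Members varied more over the series than genes at large. Across the 6 libraries, 57 of the 99 members at 1 FPKM or more (57.6%, against 43.8% of all such genes) had a range of at least 2-fold in scaled counts, 18 (18.2%, against 10.1%) a range of at least 4-fold and 6 (6.06%, against 3.18%) one of at least 8-fold. Passage 1 was the highest library for 21 members (21.2%, against 33.8% of all genes) and the lowest for 37 (37.4%, against 35.5%); it was 1 or the other for 69.2% of all genes, against which later libraries that all lie on 1 side of passage 1 have to be read. Passage 6 was the highest for 32 members (32.3%, against 19.3%). These shares are descriptions and were not tested.

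Passage 1 was set against passages 2 to 6 with edgeR's quasi-likelihood test, adjusted over all 8894 genes tested. Of the 104 members tested, 9 rose and 10 fell at an adjusted p under 0.05, that is 18.3% of them, where 23.6% of all genes tested were called. Among all genes, 9.4% rose and 14.2% fell. The share of members called was thus below the background, and at an unadjusted p under 0.05 it was 35.6% of members and 39.7% of all genes. The median log2 difference was 0.24 over the members and 0.05 over all genes, and 67 members (64.4%, against 53.0%) had a positive value. After removal of the trend with transcript length in each library, 5 members rose and 7 fell (11.5%), against 16.1% of all genes, and the member median was 0.21. Of the 19 calls, 11 were kept with the length trend removed, and 10 were kept when each later library was left out in turn.

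**Figure D2:**
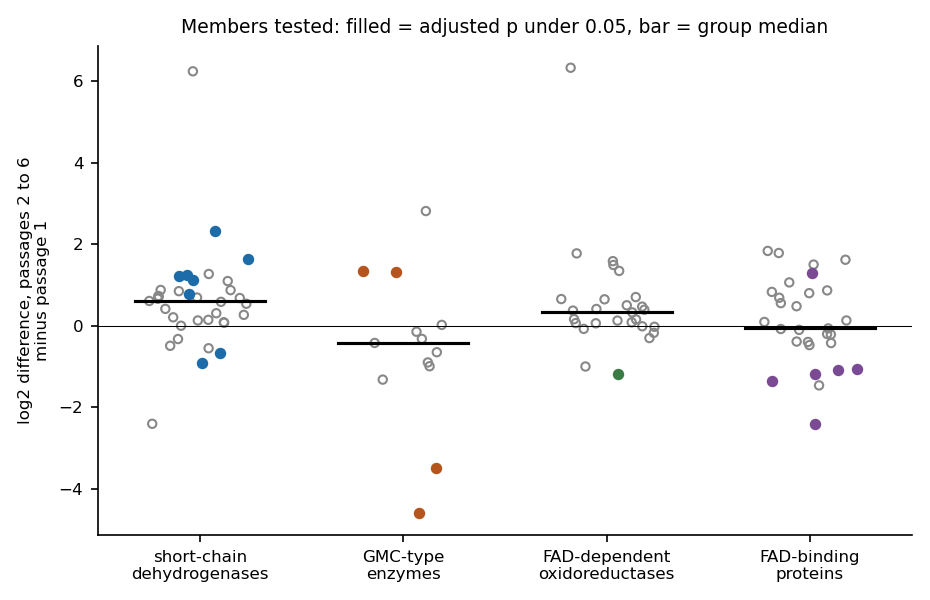
Log2 difference of each of the 104 tested members, passages 2 to 6 minus passage 1, on TMM-scaled counts, by group (horizontal axis; points are spread sideways for sight); filled points have an adjusted p under 0.05 and the bar is the group median. The medians are 0.61, −0.42, 0.33 and −0.06 from left to right; the 2 highest open points, CCM_04302 and CCM_02057, had no count in passage 1, so their fitted size depends on the prior count.

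Short-chain dehydrogenases leaned upward after passage 1. Of 35 tested, 6 rose and 2 fell (22.9% called, against 23.6% of all genes). A positive log2 difference was found in 29 (82.9%, against 53.0% of all genes), with a median of 0.61. Their transcripts were short, 0.882 kb in the median where the median over all genes was 1.37 kb, and short transcripts had a positive median over all genes tested. Among the 1789 tested genes of 0.6 to 1 kb, 285 rose and 87 fell, with a median of 0.38. With the length trend removed, 3 short-chain dehydrogenases rose and 3 fell (17.1% called, against 16.1% of all genes). Their median was then 0.39, with 24 of 35 positive (68.6%, against 52.5% of all genes).

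CCM_05671, a short-chain dehydrogenase, was at 41.8 FPKM in passage 1 and then at 147, 187, 156, 177 and 103 FPKM in passages 2 to 6. All later libraries lay above passage 1, with passage 6 the nearest to it, and the log2 difference was 1.63 (SE 0.34, adjusted p = 0.017, edgeR). CCM_04911 had the largest increase among the short-chain dehydrogenases that passed the test but a low level, 0.70 FPKM in passage 1 and 3.59, 3.11, 5.19, 4.67 and 4.36 FPKM later (log2 difference 2.32, SE 0.48, edgeR adjusted p = 0.017). CCM_05826 was at 11.2 FPKM and then at 28.1, 33.9, 32.7, 31.0 and 29.9 FPKM. Its later levels were nearly flat, and the log2 difference of 1.22 (SE 0.19, edgeR adjusted p = 0.0068) was among the firmest of the group. These 3 calls held in all 11 alternative fits, with adjusted p of at most 0.042, 0.038 and 0.020.

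CCM_08308 was at 4.59 FPKM in passage 1 and at 13.7, 13.6, 12.8, 8.71 and 16.2 FPKM later. It rose by a log2 difference of 1.25 (SE 0.37, edgeR adjusted p = 0.048), just inside the threshold, and the adjusted p was 0.12 with the length trend removed and 0.077 to 0.084 without passage 2, 3 or 4. The other 2 that rose, named here because of their values, were CCM_01950 (9.94 FPKM, then 21.7 to 29.6 FPKM; log2 difference 1.12, SE 0.23, edgeR adjusted p = 0.016) and CCM_03400 (18.7 FPKM, then 34.7 to 42.8 FPKM; 0.79, SE 0.18, adjusted p = 0.024). Removal of the length trend took their adjusted p to 0.052 and 0.10, and leaving out passage 3 took that of CCM_03400 to 0.051.

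The short-chain dehydrogenase with the highest level, CCM_05114, went the other way. It was at 583 FPKM in passage 1 and at 367, 430, 492, 453 and 427 FPKM in passages 2 to 6. Every later library was below passage 1, and it fell by 0.67 on the log2 scale (SE 0.17, edgeR adjusted p = 0.030), with an adjusted p of 0.063 without passage 3, 0.052 without passage 5 and 0.11 with limma on FPKM. CCM_04252, which the authors' annotation places in fatty acid elongation, was at 37.7 FPKM and then at 25.1, 20.8, 23.6, 22.0 and 27.1 FPKM. It fell by 0.91 (SE 0.19, edgeR adjusted p = 0.017), by 1.09 with the length trend removed, and was called in all 11 alternative fits.

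Other short-chain dehydrogenases, some of them with high levels, did not pass the test. TCONS_00010195, a locus outside the reference annotation, was at 53.8, 92.9, 112, 133, 124 and 43.6 FPKM in passages 1 to 6, so that its first and last libraries were the lowest (log2 difference 0.66, SE 0.53, edgeR adjusted p = 0.39). CCM_01528 was at 73.5, 58.6, 73.9, 87.2, 73.8 and 210 FPKM, with passage 6 alone at more than 2-fold any other library. CCM_02674, low in most libraries, was at 2.79, 1.15, 0.83, 12.9, 1.11 and 6.25 FPKM, high in passage 4 and, less so, in passage 6.

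The GMC-type enzymes took many courses. Of 13 tested, 2 rose from low levels and 2 fell steeply (30.8% called, against 23.6% of all genes). The median log2 difference was −0.42, and 4 of 13 were positive (30.8%, against 53.0% of all genes). The same 2 and 2 counts stood with the length trend removed, where 16.1% of all genes were called and the group median was −0.33. GMC transcripts had a median length of 1.76 kb, and all tested genes of 1.5 to 2.5 kb had a median log2 difference of −0.12. These differences in share were not tested.

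The 3 cellobiose dehydrogenases took different courses. CCM_06091 was at 42.5 FPKM in passage 1 and at 1.27, 0.75, 3.18, 0.76 and 4.44 FPKM in passages 2 to 6, so passage 1 stood far above all others and passages 4 and 6 were the highest of the rest. It fell by 4.59 on the log2 scale (SE 0.71, edgeR adjusted p = 0.0071), the largest decrease among the members tested, and was called in all 11 alternative fits (adjusted p at most 0.019). CCM_06150 was at 237, 253, 221, 197, 217 and 235 FPKM, and CCM_01081 at 29.2, 34.2, 33.9, 30.8, 30.8 and 27.1 FPKM. Both stayed within a narrow band, with log2 differences of −0.32 (SE 0.18, adjusted p = 0.23) and −0.15 (SE 0.18, adjusted p = 0.57) in edgeR. The summed level of the 3 was therefore carried by CCM_06150 in every library.

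CCM_06408, a GMC oxidoreductase that the authors' annotation places in glycine, serine and threonine metabolism, had a course like that of CCM_06091. It was at 45.8 FPKM in passage 1 and at 1.75, 1.59, 12.9, 2.14 and 6.10 FPKM later. It fell by 3.48 (SE 0.88, edgeR adjusted p = 0.032), with an adjusted p of 0.051 without passage 2 and 0.065 without passage 5. Passages 4 and 6, its highest later libraries, were also the later libraries with the highest summed conidia markers, whose part in these levels was not tested.

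CCM_07480 and CCM_09084, both called GMC oxidoreductases, rose from low levels. CCM_07480 was at 2.85 FPKM in passage 1 and at 7.67, 10.5, 8.87, 8.49 and 7.08 FPKM later (log2 difference 1.33, SE 0.27, edgeR adjusted p = 0.017). CCM_09084 was at 1.89 FPKM and then at 4.75, 6.15, 6.17, 4.63 and 7.01 FPKM (1.35, SE 0.31, adjusted p = 0.024). Passage 1 was at least 2-fold below every other library in both, and both were called in all 11 alternative fits.

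The GMC member with the highest level, CCM_07730, was at 715, 441, 647, 400, 256 and 395 FPKM in passages 1 to 6. Passage 3 came near to passage 1 and the log2 difference of −0.99 (SE 0.37) did not pass (edgeR adjusted p = 0.091). CCM_01704 was at 179, 51.8, 115, 82.6, 122 and 54.8 FPKM, lowest in passages 2 and 6 (−1.32, SE 0.44, adjusted p = 0.069). The next gene on its scaffold, CCM_01703, encodes a betaine aldehyde dehydrogenase, the enzyme that oxidises betaine aldehyde to glycine betaine, and was at 58.9, 22.0, 38.5, 30.3, 29.9 and 22.3 FPKM (fell by 1.29, SE 0.27, adjusted p = 0.017). It too was lowest in passages 2 and 6.

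The gene called glucose oxidase, an enzyme that turns glucose into gluconolactone and hydrogen peroxide, was nearly silent until passage 6. Its transcript length was 0.954 kb, where the GMC median was 1.76 kb. Whether it encodes a whole enzyme was not tested. CCM_02694 had 3, 6, 0, 1, 2 and 167 counts in passages 1 to 6, or 0.32, 0.46, 0, 0.08, 0.17 and 12.9 FPKM. Passage 6 against passage 1 gave a log2 ratio of 4.79 (95% interval of counting error 3.51 to 7.37), and the test of passage 1 against all later passages gave an adjusted p of 0.59 in edgeR. The list of gluconolactonases and gluconokinases held a gluconolactonase-like protein (CCM_02799) and a gluconokinase (CCM_01692). They were at 14.6 to 20.7 and 4.21 to 11.8 FPKM and neither was called.

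**Figure D3:**
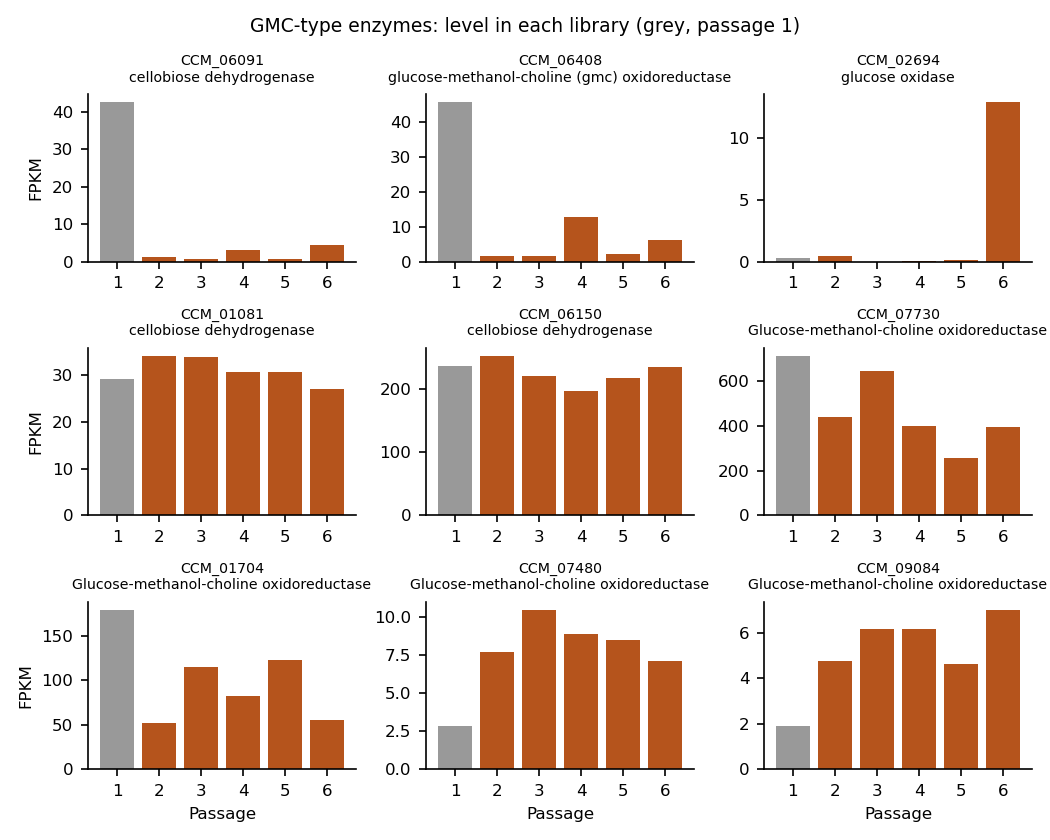
FPKM as deposited (vertical axes, from 0, scaled per panel) of 9 GMC-type enzymes in the 6 libraries (horizontal axes; 1 bar a library, passage 1 in grey). CCM_06091 and CCM_06408 are high in passage 1, glucose oxidase CCM_02694 in passage 6, and cellobiose dehydrogenases CCM_01081 and CCM_06150 are nearly level.

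Few FAD-dependent oxidoreductases passed the test. Of 27 tested, none rose and 1 fell, 3.70% of the group against the 23.6% of all genes, and 4 had an unadjusted p under 0.05. The count was the same with the length trend removed, where 16.1% of all genes were called and FAD-binding proteins had as few calls, 1 of 29. The median log2 difference was 0.33 and 20 of 27 were positive. The 1 that fell was CCM_04383, and its name is in doubt: the product text calls it an enzyme like FAD-dependent oxidoreductases, whereas the authors' annotation gives it the ortholog of a thiolase and places it in peroxisomal fatty acid degradation. It was at 31.1 FPKM in passage 1 and at 15.8, 15.4, 19.9, 14.8 and 15.5 FPKM later (log2 difference −1.18, SE 0.18, edgeR adjusted p = 0.0066), and it was called in all 11 alternative fits.

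The highest member of all, CCM_05329, was at 797, 1142, 792, 834, 1156 and 1344 FPKM, high in passages 2, 5 and 6 and low in 1, 3 and 4. CCM_09198 and CCM_00374, which the authors' annotation places in the peroxisome and in lysine degradation, both stood at about 3 times their passage 1 FPKM in passage 2 and parted after it. CCM_09198 was at 99.2, 295, 98.6, 64.2, 78.5 and 385 FPKM, high only in passages 2 and 6. CCM_00374 was at 30.02, 96.9, 158, 132, 106 and 43.9 FPKM, high in the middle passages and near its passage 1 level in passage 6.

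CCM_00583, placed by the authors' annotation in the degradation of aromatic compounds, had a course like that of CCM_00374, at 7.97, 26.5, 36.8, 27.1, 27.9 and 14.98 FPKM (log2 difference 1.49, SE 0.45, edgeR adjusted p = 0.053). CCM_01015 was at 70.8 to 177 FPKM, highest in passage 6. The sulfhydryl oxidase Erv2 (CCM_08754), which forms disulfide bonds in the endoplasmic reticulum in yeast, was at 65.1 to 90.2 FPKM (0.13, SE 0.14, adjusted p = 0.52). CCM_00281 was at 91.7 FPKM in passage 1 and 39.3 to 79.5 FPKM later (−0.999, SE 0.37, adjusted p = 0.092). These 4 did not pass the test.

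Of 29 FAD-binding proteins tested, 1 rose and 5 fell (20.7%, against 23.6% of all genes), with a median log2 difference of −0.06. With the length trend removed, 1 fell (CCM_02447) and none rose (3.45% called, against 16.1% of all genes). In that fit 13 had an unadjusted p under 0.05 (44.8%, against 34.9% of all genes), and the median was 0.03.

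CCM_07717, an FAD-binding monooxygenase, was the member of this group with the highest level. It was at 306 FPKM in passage 1 and at 1010, 650, 683, 1028 and 1061 FPKM later. All later libraries were at least 2 times the passage 1 FPKM as deposited. On TMM-scaled counts (CPM), passages 3 and 4 were at 935 and 991 against 538 in passage 1, less than 2-fold above it. The gene rose by 1.30 on the log2 scale (SE 0.38, edgeR adjusted p = 0.047). The adjusted p was 0.074 without passage 2, 0.082 without passage 5, 0.051 without passage 6 and 0.054 with the length trend removed. The gene before it, CCM_07716, a 6-phosphogluconate dehydrogenase of the NADPH-yielding pentose phosphate pathway, was at 73.6, 144, 127, 138, 150 and 161 FPKM (0.72, SE 0.19, adjusted p = 0.034). TCONS_00013212 and TCONS_00013211, outside the reference annotation, had the same product text as CCM_07717 and lay beside CCM_07730 on scaffold NW_006271974.1; they were at 6.82 to 19.4 and 0 to 1.12 FPKM, and reads shared between copies could not be told apart.

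CCM_08013, with a type 2 FAD-binding domain, was at 31.9 FPKM in passage 1 and at 3.86, 7.56, 8.66, 2.38 and 13.5 FPKM later. It fell by 2.41 (SE 0.65, edgeR adjusted p = 0.038), with an adjusted p of 0.059 when the length trend was removed and 0.062 to 0.067 without passage 2, 3 or 4. CCM_02447, of the same domain type, was at 28.8 FPKM and then at 11.1, 12.0, 15.2, 10.6 and 17.4 FPKM. It fell by 1.37 (SE 0.26, adjusted p = 0.013) and was called in all 11 alternative fits (adjusted p at most 0.031).

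CCM_03990 was at 202 FPKM in passage 1 and 91.1 to 145 FPKM later (fell by 1.06, SE 0.25, edgeR adjusted p = 0.026), CCM_09372 at 51.0 and 18.9 to 33.3 FPKM (fell by 1.07, SE 0.26, adjusted p = 0.027), and CCM_05562 at 2.95 and 1.08 to 1.91 FPKM (fell by 1.18, SE 0.33, adjusted p = 0.042). Passage 1 was the highest library in all 3, as it was for 33.8% of all genes. CCM_03990 lost its call without passage 4 or 5 (0.052 and 0.054), CCM_09372 without passage 3 (0.051), and CCM_05562 without passage 2, 3, 4 or 5 (0.057 to 0.082), and with the length trend removed the adjusted p were 0.057, 0.072 and 0.070.

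Several FAD-binding proteins peaked in the middle of the series. CCM_09090 was at 46.4, 108, 234, 185, 214 and 40.4 FPKM, high in passages 3 to 5 and at its passage 1 level in passage 6 (log2 difference 1.502, SE 0.87, edgeR adjusted p = 0.24). The monooxygenase TCONS_00015567 was at 3.47, 9.90, 24.1, 20.9, 10.4 and 9.11 FPKM (1.84, SE 0.65, adjusted p = 0.082), and the monooxygenase CCM_03625 at 2.10, 2.96, 10.9, 7.19, 10.8 and 6.66 FPKM (1.62, SE 0.72, adjusted p = 0.14). CCM_05932 was level, at 86.3 to 114 FPKM. CCM_02519, a monooxygenase of the PheA/TfdB family, whose bacterial namesakes hydroxylate phenols, was at 3.06, 4.08, 4.97, 5.61, 4.48 and 18.7 FPKM, and passage 6 stood apart.

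Each later passage alone was also set against passage 1, without a test, over members and genes differing by 2-fold or more. In passage 2 these were 27 of 99 members (27.3%, against 20.9% of all genes), 15 higher (9.96% of all genes) and 12 lower (10.9%). In passage 3 they were 34 members (34.3%, against 26.0%), 17 higher (12.6%) and 17 lower (13.4%), and in passage 4 they were 28 (28.3%, against 20.6%), 17 higher (10.6%) and 11 lower (9.97%). In passage 5 they were 35 (35.4%, against 25.4%), 19 higher (12.0%) and 16 lower (13.4%), and in passage 6 they were 32 (32.3%, against 22.9%), 21 higher (12.1%) and 11 lower (10.8%). The share of members was above that of all genes in each passage, with more members higher than lower in passages 2, 4, 5 and 6. The 5 comparisons share the passage 1 library. In the authors' deposited tables of genes past their threshold, 31, 36, 30, 38 and 41 of the 111 members were listed for passages 2 to 6, which is 27.0% to 36.9% of members against 18.2% to 24.1% of all genes.

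Few members stood at least 2-fold outside all other libraries in 1 passage. Passage 1 was that far above every other library for 3 members (CCM_06091, CCM_06408 and CCM_08013), where 4.83% of all genes were, and that far below for 6 (CCM_04911, CCM_05671, CCM_05826, CCM_07480, CCM_09084 and TCONS_00015567), where 4.68% of all genes were. Passage 6 was that far above for 3 members, glucose oxidase CCM_02694, the PheA/TfdB monooxygenase CCM_02519 and the short-chain dehydrogenase CCM_01528, which is 3.03% of members where 0.684% of all genes were. Passage 3 was above for 1, CCM_00680, at 2.48 FPKM against 0.47 to 1.04 FPKM elsewhere, where 0.165% of all genes were, and no member stood apart in passage 2, 4 or 5, where 0.0589%, 0.0472% and 0.141% of all genes were above and 0.248%, 0.0472% and 0.118% below. None was that far below in passage 3 or 6, where 0.436% and 0.271% of all genes were.

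A slope over passage number was also tested. With edgeR, 0.0% of the 8758 genes tested were called at an adjusted p under 0.05 and so 0 of 101 members, with 8 members at an unadjusted p under 0.05. DESeq2 called 1 member, the monooxygenase CCM_01729, and the share of all genes that it called is not given here. CCM_01729 was at 1.21, 2.5, 4.42, 4.60, 5.26 and 7.96 FPKM in passages 1 to 6. Its edgeR slope was 0.43 log2 units per passage (SE 0.07, adjusted p = 0.38), and its level was higher in each passage than in the one before.

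Members lay next to each other more often than genes at large. Of the 106 reference members, 8 (7.55%) had a member as next gene, where 2.18% of all genes did: the pairs were CCM_03082 and CCM_03083, CCM_04302 and CCM_04303, CCM_05561 and CCM_05562, and CCM_08013 and CCM_08014. Within 3 genes, 22 members (20.8%, against 12.8%) had a major facilitator transporter, 6 (5.66%, against 3.35%) a P450 and 5 (4.72%, against 1.90%) a synthase. The synthase class took the texts of polyketide, beta-ketoacyl and non-ribosomal peptide synthases and of AMP-dependent synthetases. The neighbours CCM_08013 and CCM_08014 both counted toward each of these classes. These shares were not tested.

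The pairs were unlike in level. CCM_03082 was at 23.9 to 43.6 FPKM beside CCM_03083 at 0 to 0.10 FPKM, and CCM_05562 at 1.08 to 2.95 FPKM beside CCM_05561 at 0.06 to 0.18 FPKM. CCM_04302 and CCM_04303 were both low, at 0 to 1.65 and 0.24 to 1.74 FPKM. CCM_04302 had 0, 6, 7, 13, 7 and 17 counts, so that its later mean was at least 2.13-fold above a floor of 3 counts in passage 1, and its edgeR adjusted p was 0.054.

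The pair of CCM_08013 and the short-chain dehydrogenase CCM_08014 lay in a run of 6 genes on scaffold NW_006271974.1 that moved together. CCM_08014, which the authors' annotation places in aflatoxin biosynthesis, was at 44.9, 1.27, 32.1, 8.57, 1.33 and 8.41 FPKM in passages 1 to 6 (log2 difference −2.40, SE 1.23, edgeR adjusted p = 0.19). It was almost off in passages 2 and 5 and close to its passage 1 level in passage 3. The run began with a major facilitator transporter (CCM_08011, 12.2, 2.08, 4.75, 2.36, 0.89 and 2.38 FPKM) and a P450 (CCM_08012, 87.0, 10.7, 17.5, 27.8, 7.70 and 75.9 FPKM). It ended with a DltD domain protein (CCM_08015, 38.4, 1.07, 6.95, 7.64, 0.80 and 8.12 FPKM) and a beta-ketoacyl synthase (CCM_08016, 56.0, 4.34, 11.2, 9.87, 4.77 and 11.4 FPKM). All 6 were highest in passage 1, and passages 2 and 5 were the lowest libraries of each. The flanking ankyrin repeat gene CCM_08010 was at 5.65 to 8.67 FPKM with no such dip, and CCM_08017 on the other side had no count in any library.

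**Figure D4:**
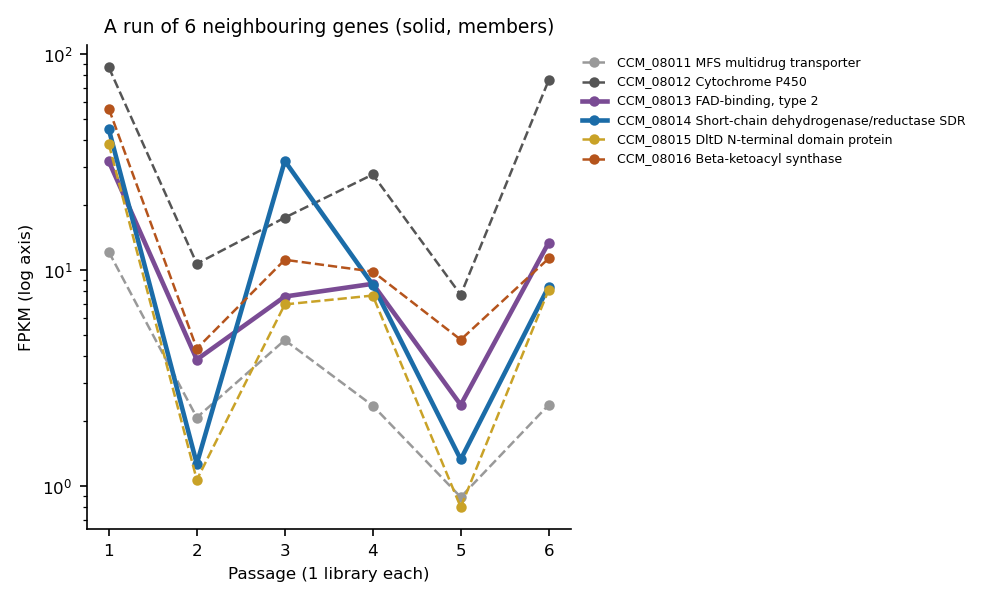
FPKM as deposited (vertical log axis) of the 6 neighbouring genes CCM_08011 to CCM_08016 in the 6 libraries (horizontal axis); solid lines are the members CCM_08013 and CCM_08014, dashed lines the other 4 genes. All are highest in passage 1 and dip in passages 2 and 5, and CCM_08014 returns to 32.1 FPKM in passage 3.

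Sequence differences from the reference strain were read from the same libraries. The authors' table listed 967 sites in 105 members, 893 exonic and 74 intronic, or 6.43 exonic sites per kb against 5.74 over all genes, a difference that was not tested. Nonsynonymous changes were 28.7% of single-base coding changes in members and 27.4% in all genes. Of the 436 member sites with at least 10 reads in every library, 391 (89.7%, against 91.9% of all sites) carried the non-reference base in all 6. A site counted as such where at most 5% of reads had the reference base.

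Truncating changes were listed in 4 members. The short-chain dehydrogenase CCM_01528 had a stop at residue 35 (S35X, exon 2, scaffold NW_006271969.1, position 4925605), which was read in passages 1, 3, 4 and 5 with 44, 53, 76 and 73 reads and 0 reference reads. Passages 2 and 6 had 58 and 134 reads of the reference base and 0 of the other. So 4 libraries carried only the stop and 2 only the reference base, a split seen at 16 of 61937 covered sites in the series. Passage 2 had the lowest level of this gene and passage 6 the highest, 58.6 and 210 FPKM. In the other 3, all reads of all 6 libraries carried the change: a stop in the FAD-dependent oxidoreductase CCM_05978 (Q397X, position 3031848 on scaffold NW_006271972.1), and frameshift insertions in the FAD-binding CCM_04362 (I13fs, position 2362315 on scaffold NW_006271971.1) and the GMC oxidoreductase CCM_04730 (N54fs, position 3586888 on the same scaffold). These 3 genes were still at 7.74 to 14.8, 37.2 to 47.1 and 6.72 to 10.7 FPKM.

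In some members a library held reads of 2 alleles. Sites that the authors' genotype codes gave as mixed in at least 1 library numbered 79 in 21 members (8.17% of member sites, against 5.77% of sites in all genes). Of these, 16 were mixed in passage 1 and 35 to 48 in each later library. In CCM_07717, the allele that was minor in passage 1 took 1.21%, 52.0%, 15.1%, 77.4%, 58.2% and 80.6% of reads in passages 1 to 6, pooled over 10 of its 16 mixed sites with at least 10 reads in every library. Single sites among these 10 differed widely, from 25.2% to 84.0% in passage 2, 0% to 42.7% in passage 3 and 28.8% to 87.1% in passage 5. The other 6, where the minor allele took 23.1% to 42.3% in passage 1, were left out by a limit of 20% that was set with the values known. Over all 16 the shares were 3.64%, 59.2%, 26.6%, 80.2%, 64.7% and 82.3%. In CCM_07730 on the same scaffold it took 0%, 20.5%, 0%, 88.1%, 75.7% and 92.0%, over 3 sites. In the FAD-binding CCM_08772 on scaffold NW_006271975.1 it took 2.06%, 55.5%, 16.7%, 83.6%, 64.3% and 93.2%, over 11 sites. In passage 2, single sites ran from 30.4% to 89.3% in CCM_08772 and from 19.6% to 21.2% in CCM_07730.

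The order of libraries by pooled share was the same in CCM_07717, CCM_07730 and CCM_08772 apart from the tie at 0% in CCM_07730: passage 3 was the lowest later library, then passages 2, 5, 4 and 6. Single sites in CCM_08821, CCM_08754 and CCM_06483 followed with 0% in passage 1 and 89.9%, 52.2% and 70.4% in passage 6. The other 3 members with a mixed site at that depth reached at most 12.3% in any library. The gene levels did not share 1 course: CCM_07717 was higher and CCM_07730 mostly lower in the later libraries, and CCM_08772 was at 32.5 to 52.6 FPKM (log2 difference −0.40, SE 0.26, edgeR adjusted p = 0.29). Whether allele share and level are related in any of them was not tested.

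**Figure D5:**
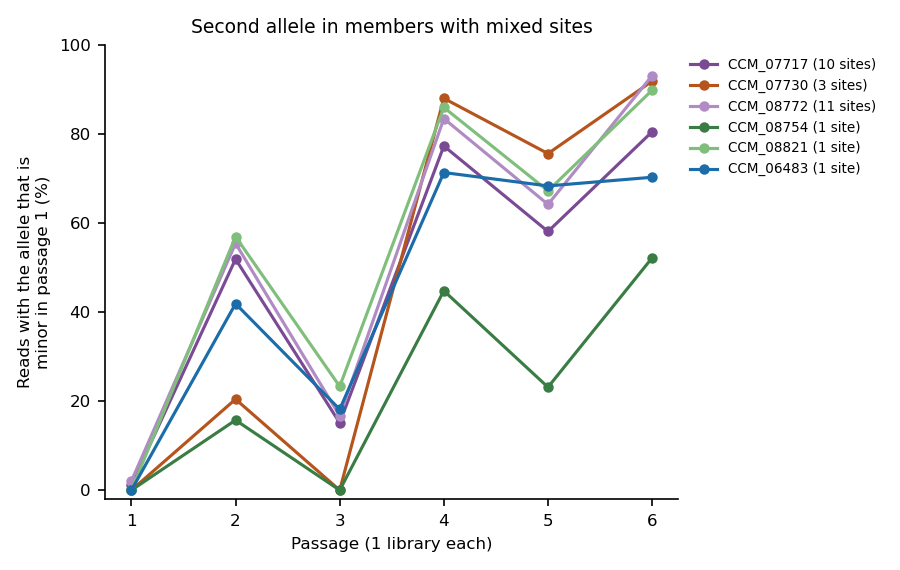
Percent of reads (vertical axis) with the allele that is minor in passage 1, pooled over the mixed sites of each of 6 members with at least 10 reads in every library and at most 20% of the minor allele in passage 1 (6 sites of CCM_07717 left out), by library (horizontal axis). The share is 0% to 2.06% in passage 1, where the limit keeps it low, is higher in passage 2, is lower again in passage 3, and is highest in passage 4 or 6.

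Of the authors' RNA editing events, 179 fell in 12 members, with 54 in CCM_07717, 45 in CCM_08772, 26 in CCM_06534 and 25 in CCM_06483. Nearly all, 178 of 179 (99.4%, against 99.2% of all listed events), were at sites where the variant table showed 2 alleles in a library. Their frequencies in CCM_07717 ran from 0.11 to 0.83 as fractions of reads. The 1 event elsewhere was in the short-chain dehydrogenase CCM_04898, at a frequency of 0.90 in 1 library.

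Splice junction reads were listed for 68 members. The class that marks intron retention took 6.10%, 9.10%, 5.31%, 6.21%, 7.05% and 10.8% of member junction reads in passages 1 to 6, against 2.499% to 2.88% over all genes. Most of these came from CCM_05329, the member with the highest level, with 1685, 3445, 1979, 2861, 3209 and 5552 such reads beside 4821, 10265, 6235, 7745, 9634 and 13553 reads of known junctions. CCM_07717 had 1122 reads of this class in passage 2, 24 in passage 6 and 0 in the other 4 libraries. Over all classes that are not known junctions, members lay below the genes at large, with 12.2% to 16.5% of reads against 18.8% to 19.2%.

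Enzymes that make or share the cofactors of these families were counted in the same test of passage 1 against later passages, where 9.4% of all genes rose and 14.2% fell. Of 6 genes for riboflavin, FMN and FAD synthesis, 3 rose and none fell, with a median log2 difference of 0.66: the GTP cyclohydrolase II genes CCM_09652 (139 FPKM in passage 1, 267 to 348 FPKM later) and CCM_09651 (56.6 and 99.2 to 149 FPKM), which start flavin synthesis, and lumazine synthase CCM_06814 (22.9 and 43.1 to 55.3 FPKM). With the length trend removed, 2 rose and the median was 0.24. Riboflavin kinase CCM_09383, which makes FMN, was at 93.3 to 152 FPKM and was not called. FMN oxidoreductases, which use the other flavin cofactor, had 1 that rose and 3 that fell among 8 tested, among them CCM_04115, from 392 FPKM to 51.2 to 95.2 FPKM (fell by 2.53, SE 0.25, edgeR adjusted p = 0.0034).

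Other dehydrogenase families showed calls in both directions or few. Among aldo/keto reductases, which also use NADPH, 3 of 10 rose and none fell (1 rose with the length trend removed), among alcohol dehydrogenases 5 of 35 rose and 3 fell, and among aldehyde dehydrogenases 3 of 18 rose and 3 fell. Amine, acyl-CoA and other flavin oxidases had 2 that rose and 2 that fell of 22, and P450s 3 and 6 of 52. Of 8 catalases and peroxidases, which remove hydrogen peroxide, 1 rose (cytochrome c peroxidase CCM_06954, 846 FPKM and then 1699 to 2468 FPKM), and of 5 NADPH-supplying enzymes 1 rose (CCM_07716). Neither was called with the length trend removed. No gene matched the list of glycoside hydrolase family 61 and copper monooxygenases, the partners of cellobiose dehydrogenase.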

How the data were processed

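The authors deposited 1 expression table with expected counts and FPKM per gene, and, per the file headers, tables of each later passage against passage 1 (log2 ratio, p-value), of variants (a quality score and other fields with genotypes and reads), of editing events (frequency as a fraction) and of splice junctions (read counts). The tools that the submitters' processing notes name are TopHat2, Bowtie, Cufflinks, edgeR and FastQC; versions, order and strand setting, not given in the sources used here, leave overlapping, antisense and near-identical genes uncertain. Left unused were 76 other per-sample columns.

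Members and gene lists were chosen by product text, with earlier results of these data known. The same holds for the comparison of passage 1 with later passages. Expected counts were rounded, and 36 to 50 genes per library, none a member, had values that were not whole. Tests used edgeR 4.0.16 in R 4.3.3 (filterByExpr, TMM, quasi-likelihood test in both directions, Benjamini-Hochberg at 0.05). Standard errors are the log2 difference over the root of the F statistic. Alternatives were DESeq2 1.42.0, its size factors in edgeR, no filter, limma 3.58.1 on log2(FPKM + 1) and log2(FPKM + 0.1), removal of a length trend (lowess span 0.3) and leaving out each later library. Scripts were tested on simulated data with a dispersion of 0.05. There the test of passage 1 against later passages recovered 15 of 100 changes of log2 size 1 and 90 of 100 of log2 size 2. A gene that did not pass this test may therefore still have changed. Ratios of single libraries used a prior count of 1 over genes whose mean reached 1 FPKM, with 95% binomial intervals that cover counting error only. Transcript length came from count, FPKM and library total. Gene order came from the RefSeq table of CmilitarisCM01_v01, in which all 106 reference members were found; scaffold positions are those of the deposited tables.

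Named genes are all glucose oxidases and cellobiose dehydrogenases; in each group the 4 with the highest mean FPKM and up to 4 called in each direction with the largest difference; up to 6 called by trend; up to 3 at each end of each later passage against passage 1 with at least 10 FPKM in 1 of the 2; and members in runs, with truncating variants or with editing events. Genes named outside it were chosen after their values were seen: CCM_01950, CCM_03400, CCM_01729, CCM_02057, CCM_08033, TCONS_00013211, TCONS_00013212 and the non-members.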

Additional observations from a re-analysis of the deposited data

Results flagged for a closer look

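Among 49 named members with a mean of at least 1 FPKM, 4 had 1 later library far from the other 4 later libraries (Dixon's ratio of gap to range on log2(FPKM + 1), critical value 0.71 for 5 samples). Chance flags about 1 in 20 groups, a rate that does not apply here, since some members were named for a high or low value in 1 passage, CCM_02694 and CCM_02519 for passage 6 among them. Over all 99 members at 1 FPKM or more, however named, 6 (6.06%) were past the critical value, where 4.66% of all 8483 such genes were. In glucose oxidase CCM_02694 passage 6 was high, with a ratio of 0.856. In the PheA/TfdB monooxygenase CCM_02519 passage 6 was also high, with a ratio of 0.806. In the FAD-dependent CCM_04383 passage 4 was high among the later libraries, at 19.9 FPKM against 14.8 to 15.8 FPKM, with a ratio of 0.775. In the FAD-binding CCM_09372 passage 2 was low, at 18.9 FPKM against 28.8 to 33.3 FPKM, with a ratio of 0.745.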

How the results depend on the processing

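No paired analysis was possible because each passage has 1 library and no replicate numbers. The count of members called between passage 1 and passages 2 to 6 (19; 9 higher, 10 lower) was 29 with DESeq2 (16 higher, 55.2%, against 47.4% here) and 12 with the length trend removed (5 higher). With limma on log2(FPKM + 1) and log2(FPKM + 0.1), 19 and 21 were higher and 5 and 5 lower, or 79.2% and 80.8% higher; FPKM as deposited are shifted upward in the later libraries. Leaving out each later library gave 14 to 26 called, 7 to 16 higher (16 without passage 6, 61.5%) and 6 to 10 lower (6 without passage 5). The trend count of 0 became 1, a higher one, with DESeq2. For DESeq2, limma and the fits with a library left out, the share of all genes called is not given beside these counts. Without that share, these counts alone do not tell a change in members from a change in all genes. With the length trend removed, calls went from 3 to 1 in aldo/keto reductases, 1 to 0 in catalases and peroxidases, 1 to 0 in NADPH supply, 4 to 2 in other flavin oxidases and 8 to 4 in mycelium markers. For these changes the cause was not tested. The counts of members 2-fold apart from passage 1 stayed within 1.5 times under all alternatives run, and 9 of the 17 named called members were called in all 11 alternatives. None of these 17 changed sign, but the log2 difference of 8 of the 51 named members tested, none of them called, did. With limma on log2(FPKM + 1) and log2(FPKM + 0.1) it was 0.092 and 0.095 for CCM_01081, 0.17 and 0.17 for CCM_05932, 0.19 and 0.20 for CCM_05978, 0.052 and 0.062 for CCM_06534 and 0.21 and 0.22 for CCM_08821, and −0.16 with the latter for CCM_02674. With the length trend removed it was −0.088 for CCM_01528, −0.16 for CCM_08754 and 0.25 for CCM_08821. Leaving out each later library gave −0.25 (without passage 6) to 0.35 for CCM_01528, −0.47 (without passage 4) to 0.68 for CCM_02674, −0.14 to 0.091 for CCM_05978 and −0.084 to 0.018 for CCM_08821.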

Other observations

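The short-chain dehydrogenase CCM_08033 and the heme peroxidase gene before it on the scaffold, CCM_08032, were both high in passages 2 and 6, and were picked for this after their values were seen. CCM_08033 was at 4.75, 14.7, 2.5, 2.93, 3.77 and 18.0 FPKM in passages 1 to 6. CCM_08032 was at 22.9, 32.3, 4.94, 9.40, 10.8 and 49.9 FPKM. Neither was called between passage 1 and the later passages (edgeR adjusted p = 0.75 and 0.85).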
